A study of Mus musculus with 36 samples.

Results

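Nppa and Nppb are the genes for atrial and brain natriuretic peptide, the main hormones that the heart muscle secretes. They were picked by symbol, as 2 of the 20720 nuclear genes listed in the count tables of a single-cell study of the mouse heart. Cells came from the left ventricle, in the region of the infarct, of male C57BL/6 mice aged 8 weeks by the labels. All mice had surgery. Ischemia-reperfusion (IR) was a tie of 1 hour around the left anterior descending coronary artery, and its controls had sham surgery. Myocardial infarction (MI) was a permanent tie around the same artery. The labels give sham at day 1 (Sham 1D, 4 plates) and day 14 (Sham 14D, 8 plates), IR at day 1 (IR 1D, 9 plates), day 3 (IR 3D, 7 plates) and day 14 (IR 14D, 3 plates), and MI at day 3 (MI 3 day, 5 plates).

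Natriuretic peptides are made as longer precursors, stored or released by cardiomyocytes when the wall is stretched, and cut to the active hormone by proteases such as corin. They bind receptors that make cyclic GMP, which relaxes vessels and promotes loss of salt and water. In the adult heart Nppa is known mainly from the atria, and its return in the ventricle, like that of Nppb, is a textbook mark of cardiac stress. In mice the genes lie next to each other on chromosome 4, both on the plus strand.

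In the GENCODE annotation of GRCm38, Nppb spans chr4:147985788-147987205 and Nppa chr4:148000722-148002079, with 13516 bases between them. Each has 3 exons, which join to a transcript of 781 bases for Nppb and 865 bases for Nppa. The sequence at the start of each gene is shown because the genes are neighbours that were measured together in the same cells. It was taken from RefSeq, build GRCm38.p6, plus strand. Capitals mark matches to 5 short motifs searched on both strands. They were GATAA (the core that GATA factors bind), AAGTG (NKX2-5), CATTCC (TEAD factors) and TATAAA (the TATA box). The last was a loose outline of the CArG box of serum response factor (2 C, any 6 bases, 2 G). The box itself holds only A or T at the 6 inner bases. The CArG outline does not require this, and its Nppa match holds C and G there.
Nppa, chr4:148000472-148000721: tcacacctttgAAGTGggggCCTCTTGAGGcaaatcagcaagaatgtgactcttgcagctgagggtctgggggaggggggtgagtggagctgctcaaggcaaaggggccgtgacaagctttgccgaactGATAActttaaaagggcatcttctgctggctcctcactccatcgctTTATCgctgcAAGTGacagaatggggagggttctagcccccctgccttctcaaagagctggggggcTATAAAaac
Nppb, chr4:147985792-147985821: gcaGGAATGcagctGATAAatcagaGATAA
Nppb, chr4:147985856-147985885: cactcagccccagTATAAAaggcagaggca
The 2 short Nppb stretches are the windows that hold its matches. They lie inside the gene as both annotations outline it, within the 5′ untranslated region of the GENCODE transcript, since the promoter window of RefSeq was set on a start farther downstream. The Nppa stretch ends at the base just before the gene. GATAA was matched 2 times in each window. For Nppa 1 of these matches is on the minus strand (TTATC in the print), and for Nppb the CATTCC match is (GGAATG in the print). Of 32851 promoters of the same length, 22.6% held GATAA, 40.7% AAGTG, 12.6% CATTCC, 12.4% TATAAA and 67.1% the CArG outline, so such matches are common. Binding was not measured.

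The tables hold 13824 wells, and 3146 of them had at least 1000 UMIs (unique molecular identifiers, 1 for each captured transcript) from nuclear genes. These wells were used as cells. Classes were built from clusters made without Nppa and Nppb and named from marker lists. The cardiomyocyte-like class held 1252 cells, the macrophage-like 630, the endothelial-like 404, the fibroblast-like 297, the neutrophil-like 157 and the mural-like 21, and 385 cells were unnamed. Replicates 2 and 7 of Sham 14D were 1 plate deposited in 2 tables and were counted as 1 plate. Their cells stand in the cell counts of both tables. Beside this pair, 41 wells of at least 500 UMIs matched the well of the same number on another plate, 20 of them with at least 1000 UMIs. Most lay between IR 1D replicates 9 and 5 (17 wells) and between Sham 14D replicate 2 and IR 3D replicate 6 (16 wells). With these wells left out, each of the 43 results tried kept its side of the threshold.

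The cardiomyocyte-like class differed between groups in size, depth and purity, and the comparisons within it rest on this. It held 246 cells in Sham 1D, 239 in Sham 14D, 87 in IR 1D, 301 in IR 3D, 359 in IR 14D and 20 in MI. The 12 cardiomyocyte markers, such as Myh6 and Tnnt2, took a median of 8.91% of UMIs per cell in Sham 1D, 11.2% in Sham 14D, 8.65% in IR 3D, 11.6% in IR 14D and 5.99% in MI. In IR 1D the median was 2.59%, and 35 of the 87 cells were under 2%. In IR 1D 60 of these cells fell in a cluster led by Lars2, Mir5109 and Rn45s. In IR 3D 145 cells fell in 1 cluster of 193 cells, while Sham cells lay mainly in other clusters. The median depth was 8298 UMIs in MI and 1736 to 2411 in the other groups. The median mitochondrial share of a cell's UMIs was 5.83% in MI and 75.5% to 87.1% elsewhere. In the labels the MI plates have a treatment text of their own, and no sham plate shares it. MI and whatever else differed between these plates and the rest cannot be told apart.

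Nppa was detected in 613 of the 1252 cardiomyocyte-like cells and Nppb in 569. Levels below are UMIs of the gene per 1000000 UMIs (CPM) summed over the cardiomyocyte-like cells of a plate, for plates with at least 5 such cells.

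Nppa was low in most sham plates. The 4 Sham 1D plates had 195, 1965, 383 and 4388 CPM. The 5 Sham 14D plates had 1474, 23.7, 877, 0 and 247 CPM, and the plate at 0 held 7 cells and 10975 UMIs, which allows up to 273 CPM. Sham plates thus differed among themselves by more than 10 times. Over the 8 IR 1D plates the lowest was 0 (of 24325 UMIs, which allows up to 123 CPM), the median 908 and the highest 13702 CPM. The 5 IR 3D plates had 1127, 3833, 8966, 1697 and 2216 CPM. The 3 IR 14D plates had 4372, 616 and 10178 CPM, and the 2 MI plates 1723 and 1106 CPM. All 5 IR 3D plates lay above 6 of the 9 sham plates, but Sham 1D replicates 2 and 4 and Sham 14D replicate 1 overlapped them.

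Group means of Nppa were, in rising order, 524 ± 638 CPM in Sham 14D (SD, n = 5), 1414 ± 436 in MI (n = 2), 1733 ± 1940 in Sham 1D (n = 4), 3568 ± 3182 in IR 3D (n = 5), 3730 ± 5748 in IR 1D (n = 8) and 5055 ± 4817 CPM in IR 14D (n = 3). The SD was close to or above the mean in 5 of the 6 groups. No neighbours in this order differed beyond their spread in the test between plates. Of all 15 pairs of groups, only IR 1D against Sham 14D passed for Nppa, with a log2 difference of 2.74 ± 0.89 (SE, edgeR adjusted p = 0.0133). In that pair 34.2% of all genes tested passed. In the other pairs the share of genes that passed was 0.922% for Sham 14D against Sham 1D, 6.55%, 0.146% and 44.1% for IR 3D, IR 14D and MI against Sham 1D, and 3.4% and 40.8% for IR 3D and MI against Sham 14D. It was 22.7%, 34.9% and 25.1% for IR 3D, IR 14D and MI against IR 1D and 42.4% for MI against IR 14D, and the other pairs are given with their comparison below.

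Nppb was spread over a narrower range. The Sham 1D plates had 167, 416, 504 and 306 CPM and the Sham 14D plates 66.3, 198, 451, 638 and 234 CPM. Over the IR 1D plates the lowest was 73.7, the median 557 and the highest 2869 CPM. The IR 3D plates had 322, 705, 1479, 742 and 982 CPM, the IR 14D plates 430, 634 and 934 CPM, and the MI plates 76.0 and 1011 CPM. In IR 3D, 4 of the 5 plates lay above all 9 sham plates.

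**Figure D1:**
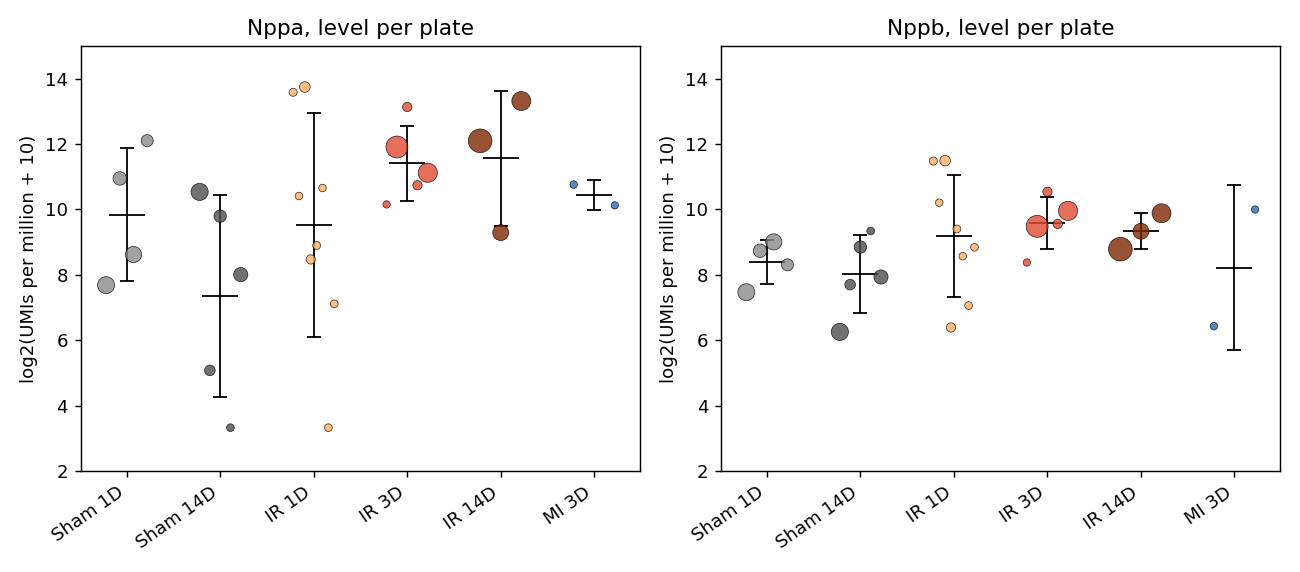
Level of Nppa (left) and Nppb (right) in cardiomyocyte-like cells, as log2(UMIs per 1000000 + 10), with 1 point per plate, sized by its number of cells, and the mean ± SD of each group as a line with bars. Nppa plates of Sham 14D and IR 1D spread from 0 to 1474 and from 0 to 13702 CPM, while the 5 IR 3D plates sit between 1127 and 8966 CPM.

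Group means of Nppb were 317 ± 226 CPM in Sham 14D (SD, n = 5), 348 ± 145 in Sham 1D (n = 4), 544 ± 661 in MI (n = 2), 666 ± 253 in IR 14D (n = 3), 846 ± 426 in IR 3D (n = 5) and 1070 ± 1154 CPM in IR 1D (n = 8). Of the 15 pairs, IR 1D passed against Sham 1D and against Sham 14D, where the log2 difference was 2.15 ± 0.58 (edgeR adjusted p = 0.00344). No neighbours in the order differed beyond their spread.

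The comparisons set by the design ask how far the hormone genes moved after injury at each day. They were fitted with edgeR's quasi-likelihood test on 2060 genes, and p values are adjusted over these genes with the Benjamini-Hochberg method. At day 1, Nppb rose in IR against Sham 1D by 1.53 ± 0.57 on the log2 scale (adjusted p = 0.0322), whereas Nppa differed by 0.95 ± 0.87 (adjusted p = 0.415). The Nppa value was 0.042 without IR 1D replicate 3 and 2.09 without Sham 1D replicate 4. In this comparison 33.2% of all genes tested passed, 10.8% upwards and 22.4% downwards. With TMM scaling 223 genes passed upwards and 461 downwards and the median log2 difference of all genes was -0.35. With RLE scaling these were 320, 310 and -0.03, and Nppb rose by 1.86 (edgeR adjusted p = 0.0128). The summed markers were lower in IR 1D and 9 of the 12 cardiomyocyte markers fell. Their part in the Nppb result was not tested. The Nppb call was lost without either of the 2 highest IR plates, replicate 1 (1.21, adjusted p = 0.086) or replicate 3 (0.92, adjusted p = 0.177), and without Sham 1D replicates 1, 2 or 4 (1.29, 1.61 and 1.51; adjusted p = 0.119, 0.054 and 0.069). With DESeq2 the difference was 1.48 (adjusted p = 0.107). In edgeR the call was also lost under the first naming rule of the clusters (0.82, adjusted p = 0.201), without the filter on low counts (0.99, adjusted p = 0.140), with wells from 500 UMIs on (1.09, adjusted p = 0.125) and without the top cell of each plate (1.10, adjusted p = 0.0939).

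At day 3, IR was set against both sham groups, since no day 3 sham was analysed here. Nppa differed by 1.46 ± 0.75 (edgeR adjusted p = 0.267) and Nppb by 1.29 ± 0.49 (adjusted p = 0.110), and 6.94% of genes passed. Neither gene met the threshold. Nppa did in 4 and Nppb in 9 of 19 other settings, apart from 2 settings that chose cells by the hormone genes themselves. Without IR 3D replicate 3, which held 5 cells, Nppb was 1.47 higher (edgeR adjusted p = 0.048).

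At day 14, Nppa had the tenth smallest p value of all 2060 genes in IR against Sham 14D, with a log2 difference of 3.13 ± 1.00 and an unadjusted p of 0.00292, but the adjusted p was 0.577 in edgeR. Nppb differed by 1.43 ± 0.65 (edgeR adjusted p = 1). Myh7, the slow myosin heavy chain, was the only gene that passed (0.0485% of those tested), with 4.14 ± 0.59 (edgeR adjusted p = 1.01e-05). Nppa passed under 5 of 17 other settings, apart from the 2 that chose cells by the hormone genes, with cells under 1% of marker UMIs left out among them (3.09, edgeR adjusted p = 0.0407). IR 14D and IR 3D differed by 0.77 ± 0.97 for Nppa and -0.17 ± 0.62 for Nppb (edgeR adjusted p = 0.772 and 0.933; 3.69% of genes passed). Without IR 14D replicate 3, the Nppa difference was -0.35.

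MI at day 3 gave 11 cells on the 2 plates used. Its log2 difference from sham was -0.33 ± 1.11 for Nppa and -0.09 ± 0.74 for Nppb (edgeR adjusted p = 0.823 and 0.923), in a comparison where 47.3% of genes passed. The sign of both changed with the setting. Without MI replicate 2, Nppb was 0.84 higher than sham, and without MI replicate 3 it was -2.67. Each of these values compares 1 MI plate, whose spread is taken from the other groups. Against IR 3D, MI differed by -1.79 ± 1.27 for Nppa and -1.38 ± 0.81 for Nppb (edgeR adjusted p = 0.294 and 0.196; 30.1% of genes passed). Without MI replicate 3 the Nppb difference was -3.90, with 1 MI plate of 6 Nppb UMIs left and the spread again taken from the other groups (edgeR adjusted p = 0.034). The errors are wide, and a missed threshold does not show equal levels.

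The share of cells that held Nppa was higher in IR 3D than in sham. To measure it, each cell was thinned to 1000 UMIs, so that deep and shallow cells had the same chance to show a UMI, and plate means were compared with exact two-sided permutation tests, adjusted over 10 tests. The Sham 1D plates had Nppa in 12%, 25.2%, 16.1% and 21.5% of cells and the Sham 14D plates in 12.9%, 3.04%, 5.98%, 0% and 10.7%. The IR 3D plates had 38.9%, 54.4%, 69.4%, 55.6% and 47.3%, all above every sham plate. The mean was 53.1% ± 11.3 in IR 3D (SD, n = 5) and 11.9% ± 8.25 in sham (n = 9), and the difference of 41.2 points was past the threshold (exact permutation p = 0.0004995, adjusted p = 0.004995). The same test was run on all 2060 genes. Of these 2.14% were higher in every IR 3D plate than in every sham plate and 21.7% had an unadjusted p under 0.05. Adjusted over all of them the Nppa value still passed (exact permutation, adjusted p = 0.0251). The call was kept without any 1 plate (37.1 to 44.7 points) and in 14 of 15 other settings, apart from the 2 that chose cells by the hormone genes. In the exception, against Sham 14D alone, all IR 3D plates lay above all sham plates. The difference of 46.6 points had the smallest p that 5 against 5 plates allow (exact permutation p = 0.00794, adjusted p = 0.0794). With the other tests as they stood, this difference could not pass.

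Nppa was also found in more cells of IR 14D than of Sham 14D, with plates at 38.4%, 24.1% and 63.4%. Means were 42.0% ± 19.9 (n = 3) and 6.52% ± 5.32 (n = 5), a difference of 35.5 points (exact permutation p = 0.0179, adjusted p = 0.0455). In MI the plates had 77.2% and 45.0%, and the mean of 61.1% ± 22.8 (n = 2) was 49.2 points above sham (exact permutation p = 0.0182, adjusted p = 0.0455). The smallest p these plate numbers allow is 0.0179 for IR 14D and 0.0182 for MI. Without 1 of its plates or of its sham plates neither comparison could pass. The smallest p was then 0.0286 (3 against 4 plates) or 0.0476 (2 against 5) for IR 14D, and 0.0222 (2 against 8) or 0.1 (1 against 9) for MI, each over the threshold once adjusted with the other tests (exact permutation, adjusted p = 0.0714, 0.119, from 0.0556 and from 0.2). The differences ranged from 24.7 to 44.4 points for IR 14D and from 33 to 65.3 for MI. Over all 2060 genes the IR 14D value did not pass (exact permutation, adjusted p = 0.876), and 0 genes did, while 3.54% had an unadjusted p under 0.05. Of all genes 3.35% were higher in every IR 14D plate than in every Sham 14D plate. In MI the Nppa value passed over all genes (exact permutation, adjusted p = 0.0460), but 47.4% of genes had an unadjusted p under 0.05 and 30.9% were higher in every MI plate than in every sham plate, so such a difference was common there.

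**Figure D2:**
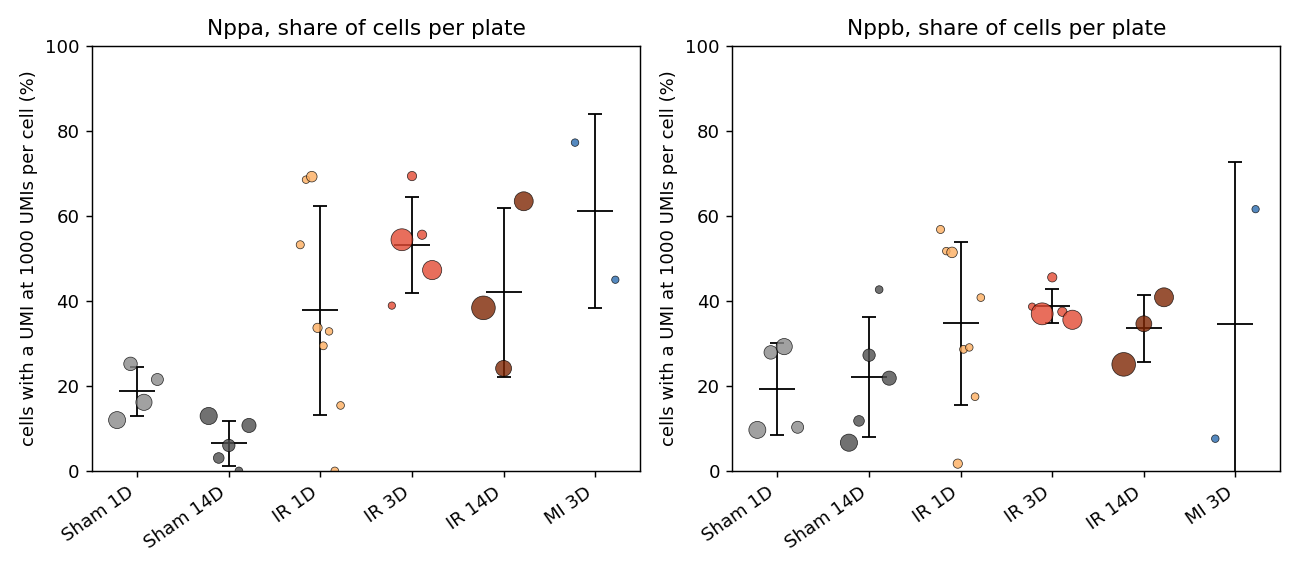
Percent of cardiomyocyte-like cells with a UMI of Nppa (left) and Nppb (right) after thinning to 1000 UMIs, with 1 point per plate, sized by its number of cells, and the mean ± SD of each group. For Nppa the IR 3D plates lie between 38.9% and 69.4%, above all sham plates (0% to 25.2%), while for Nppb the ranges overlap.

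At day 1 the IR plates had Nppa in 0% to 69.2% of cells, and the mean of 37.8% ± 24.5 (n = 8) did not differ from the 18.7% ± 5.83 of Sham 1D beyond the spread (exact permutation p = 0.174, adjusted p = 0.290). With cells under 1% of marker UMIs left out, 5 of the 8 IR plates still had 5 cells, and the difference of 35.2 points passed (exact permutation, adjusted p = 0.0364). The 3 plates lost had a mean of 16.1%, and over the 5 plates kept the difference was already 32.1 points with all their cells counted, against 19.1 over all 8. This setting was chosen after the data had been seen.

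Nppb was found in 19.3% ± 10.8 of Sham 1D cells (n = 4) and 22% ± 14.1 of Sham 14D cells (n = 5). Its share was 38.8% ± 3.91 in IR 3D (n = 5), 18.0 points above sham (exact permutation p = 0.00949, adjusted p = 0.0455). The highest sham plate, Sham 14D replicate 6 with 7 cells, reached 42.7%, within the IR 3D range of 35.6% to 45.5%. Adjusted over all 2060 genes it did not pass (exact permutation, adjusted p = 0.105). The call was also lost without any 1 of 8 sham plates or without IR 3D replicate 5 (16.3 to 19.1 points, adjusted p up to 0.0664). It was kept without Sham 14D replicate 6 or another IR 3D plate. The other Nppb shares were 34.7% ± 19.1 in IR 1D, 33.5% ± 7.95 in IR 14D and 34.6% ± 38.2 in MI, and none passed (exact permutation, adjusted p = 0.290, 0.357 and 0.5). Between MI and IR 3D neither share differed beyond the spread (8.02 points for Nppa and -4.25 for Nppb, exact permutation, adjusted p = 0.635 and 0.667). With wells from 500 UMIs on, the Nppa difference had the opposite sign and passed (-20.0 points, exact permutation, adjusted p = 0.0159).

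Without thinning the Nppa share of pooled cells was 28.9% in Sham 1D (71 of 246 cells, 95% Clopper-Pearson interval 23.3% to 35%), 15.1% in Sham 14D (10.8% to 20.2%), 56.3% in IR 1D (45.3% to 66.9%), 70.8% in IR 3D (65.3% to 75.8%), 63.5% in IR 14D (58.3% to 68.5%) and 80% in MI (56.3% to 94.3%). For Nppb these shares were 33.7%, 27.6%, 44.8%, 58.8%, 52.9% and 70%. Intervals cover counting error only. The same order of IR over sham held within clusters: in the largest, of 434 cells, thinned Nppa was in 17.7% of Sham 1D, 9.46% of Sham 14D, 43.0% of IR 3D and 38.1% of IR 14D cells. In the cluster led by Lars2 the shares were 17.4%, 6.82%, 49.8% and 49.2%. These values pool cells of several plates and are descriptions.

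Much of the Nppa signal came from few cells. Of all 16075 Nppa UMIs, 50% were held by 15 cells (1.20%), while for Nppb 50% of 2900 UMIs were held by 48 cells (3.83%). The highest cell, of IR 14D replicate 3, had 2218 Nppa UMIs of 33179, together with 99 of Nppb and 1130 of Clu. It alone held 27.3% of the Nppa UMIs of IR 14D. In Sham 1D the top cell held 34.2% and in Sham 14D 42.7% of the group's Nppa UMIs, with 393 and 241 UMIs. In IR 1D it held 38.6%, in MI 24.3% and in IR 3D 11.4%. Cells with at least 20 Nppa UMIs numbered 7 of 246 in Sham 1D, 4 of 239 in Sham 14D, 9 of 87 in IR 1D, 45 of 301 in IR 3D, 35 of 359 in IR 14D and 4 of 20 in MI. High cells were thus present after sham surgery as well.

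**Figure D3:**
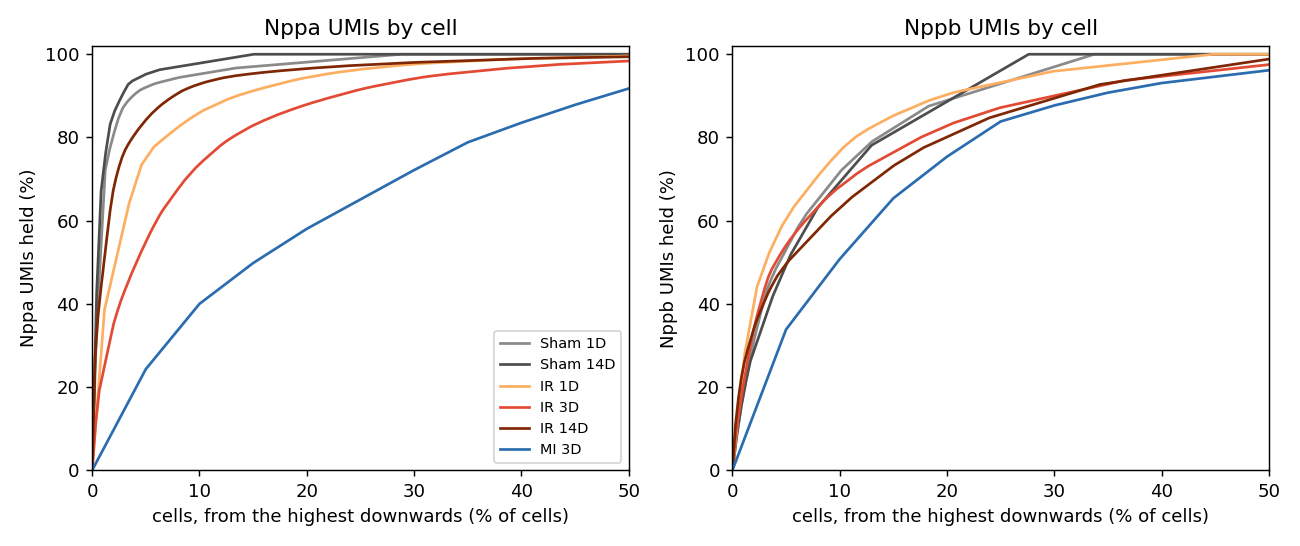
Share of the Nppa (left) and Nppb (right) UMIs of each group held by its cells, counted from the highest cell downwards, as percent of cells on the horizontal axis. For Nppa 50% of the UMIs were held by 2 cells in each sham group and in IR 1D, by 4 cells in IR 14D and in MI, and by 13 cells in IR 3D.

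The cells rich in Nppa carried ventricular light chains and no atrial markers. In all 32 cells with at least 100 Nppa UMIs, Myl2, the ventricular regulatory light chain, was detected, as was Myl3. The other ventricular genes of the list were sparse, with Irx4 in 5 and Hey2 in 0 of these cells. In the 639 cells without Nppa they were found in 42 and 4. The atrial genes Myl7, Myl4, Sln and Bmp10 had 0 UMIs in these 32 cells, of 260632 UMIs in all. In the 639 cells with 0 Nppa UMIs, Myl7 was found in 1 cell and Myl4 in 3. Myl2 was at 5897 CPM in the 32 cells and at 8932 CPM in the 639. Of conduction system genes, Gja5, Cntn2 and Etv1 were each found in 1 of the 32 cells, Irx3 in 4, and Hcn4 and Tbx3 in 0.

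Nppa and Nppb were often found in the same cells. Of the 1252 cells, 357 held both, 256 only Nppa, 212 only Nppb and 427 neither. Nppb was detected in 58.2% of cells with Nppa and in 33.2% of cells without it. The former were deeper (median 2635 against 1977 UMIs), but after thinning to 1000 UMIs the shares were still 36.8% and 19%. The thinned share was higher in the Nppa-positive cells in 12 of 14 plates that held at least 5 cells of each kind. The exceptions were IR 14D replicate 3 (39.9% against 47.1%) and IR 1D replicate 4 (0% against 3.03%). Without thinning, both genes together were found in 14.6% of cells in Sham 1D, 6.28% in Sham 14D, 33.3% in IR 1D, 45.2% in IR 3D, 35.9% in IR 14D and 60% in MI. The MI value is of 20 cells with a median of 8298 UMIs, against 1736 to 2411 in the other groups, so it is not at equal depth.

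The thinned Nppb share was higher at each higher Nppa count of the cell, from 19% at 0 UMIs to 27.3% at 1 to 4, 43.2% at 5 to 19, 60.4% at 20 to 99 and 72.3% at 100 and over. The median depth of these cells was 1977, 2474, 2278, 3113 and 6138 UMIs. Across cells, with each plate's mean taken off, Pearson's r of log-scaled counts was 0.31, a description over 1252 cells that share plates and depth. Among 3107 genes the 5 most like Nppa were Nppb (0.31), Clu (0.31), Ankrd1 (0.30), Actc1 (0.24) and Myh7 (0.24). Those most like Nppb were Clu (0.35), Nppa (0.31), Atp1b1 (0.28), Fuca2 (0.25) and Ctgf (0.25). Clu encodes the secreted chaperone clusterin, Ankrd1 a stretch-responsive repeat protein and Ctgf a matricellular growth factor.

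**Figure D4:**
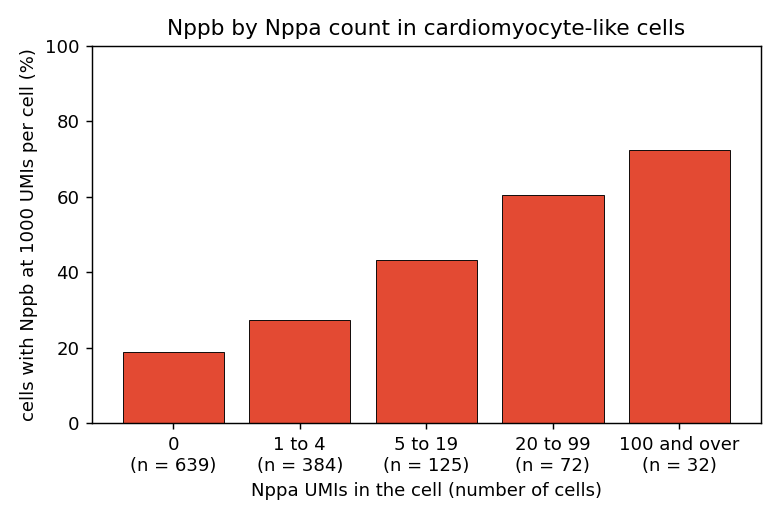
Percent of cardiomyocyte-like cells with an Nppb UMI after thinning to 1000 UMIs (bars), by the Nppa UMIs counted in the cell, with the number of cells under each bar and all groups pooled. The share was 19% in the 639 cells without Nppa and 72.3% in the 32 cells with 100 or more Nppa UMIs.

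Whether the genes changed by unequal amounts was tested with the log2 ratio of Nppb to Nppa UMIs of a plate. This ratio ranged from -3.83 to 0.39 in Sham 1D, from -4.43 to 3.91 in Sham 14D, from -2.25 to 2.81 in IR 1D, from -2.59 to -1.17 in IR 3D, from -3.45 to 0.04 in IR 14D and was -4.39 and -0.13 in MI. The upper ends in Sham 14D and IR 1D are plates with 0 Nppa UMIs, so their values depend on the pseudocount of 0.5. Both plates enter the differences that follow. Differences between injury and control were 1.01 at day 1, -1.27 at day 3 and -2.48 at day 14 for IR, and -1.73 for MI. None passed (exact permutation, adjusted p = 0.568 each). MI and IR 3D differed by -0.46 (exact permutation, adjusted p = 0.714).

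Outside the cardiomyocyte-like class both genes were found at a low level in every named class. Pooled over groups, Nppa was at 3327 CPM in cardiomyocyte-like cells, 170 in neutrophil-like, 141 in endothelial-like, 27.3 in macrophage-like, 23.8 in mural-like and 16.9 CPM in fibroblast-like cells. For Nppb the levels were 600, 39.5, 38.3, 11.5, 7.93 and 7.11 CPM in the same order. These values mix groups, since of the 157 neutrophil-like cells 107 came from IR 1D and 49 from MI, and of the 297 fibroblast-like cells 132 came from MI. The order among the other classes is therefore not read. Plate by plate, log2(CPM + 10) of Nppa was higher in cardiomyocyte-like than in other named cells by 4.18 ± 2.04 (SD, 24 of 26 plates, exact permutation of signs, adjusted p = 1.19e-07). For Nppb it was higher by 3.97 ± 1.37 (26 of 26 plates, exact permutation of signs, adjusted p = 5.96e-08). That Nppb value rests on the smallest p that 26 plates can give, 2.98e-08. The clusters had been made without these genes. The naming rule, however, was changed when a cluster whose leading genes include both was known to be unnamed. The class difference was not run under the first naming rule.

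Cardiomyocyte RNA in general was found in the other classes as well. The 12 cardiomyocyte markers summed to 19048 CPM in endothelial-like cells of Sham 1D, 20960 CPM in those of IR 3D and 3835 CPM in those of IR 1D. In plates with both kinds of cells, the log2 ratio of Nppa to the summed markers in the other classes relative to cardiomyocyte-like cells was -0.58 ± 1.94, which missed the threshold (SD, 26 plates, 11 above 0, exact permutation of signs, adjusted p = 0.137). Without the Sham 14D plate of replicates 2 and 7, where Nppa had 1.5 UMIs, the Nppa value was -0.76 (exact permutation of signs, adjusted p = 0.0434). For Nppb the difference was -0.65 ± 1.15 (6 of 26 above 0, exact permutation of signs, adjusted p = 0.0156), so relative to the markers the other classes held less Nppb. It missed the threshold in 5 of 7 other settings, apart from the clusters made with both genes. The first naming rule was not among these settings.

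Endothelial-like cells of IR 3D had the highest level outside cardiomyocytes among classes of at least 5 cells, with 1334 CPM of Nppa and 233 CPM of Nppb in 33 cells. There 139 of the 229 Nppa UMIs came from 1 cell. In these cells thinned Nppa was found in 32%, against 5.76% in endothelial-like cells of Sham 1D and 0.240% in those of MI. The median depth was 3184, 3127 and 16726 UMIs. Nppa UMIs in fibroblast-like cells were 4 in Sham 1D, 0 of 97981 in Sham 14D, 19 in IR 1D, 104 in IR 3D, 13 in IR 14D and 10 in MI. In MI, fibroblast-like cells had 1.42 and 1.85 CPM and macrophage-like cells 5.78 and 5.52 CPM of Nppa and Nppb. The neutrophil-like and unnamed cells of MI had more Nppa, with 90.7 and 324 CPM. In the MI plates 20 of 721 cells were cardiomyocyte-like.

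**Figure D5:**
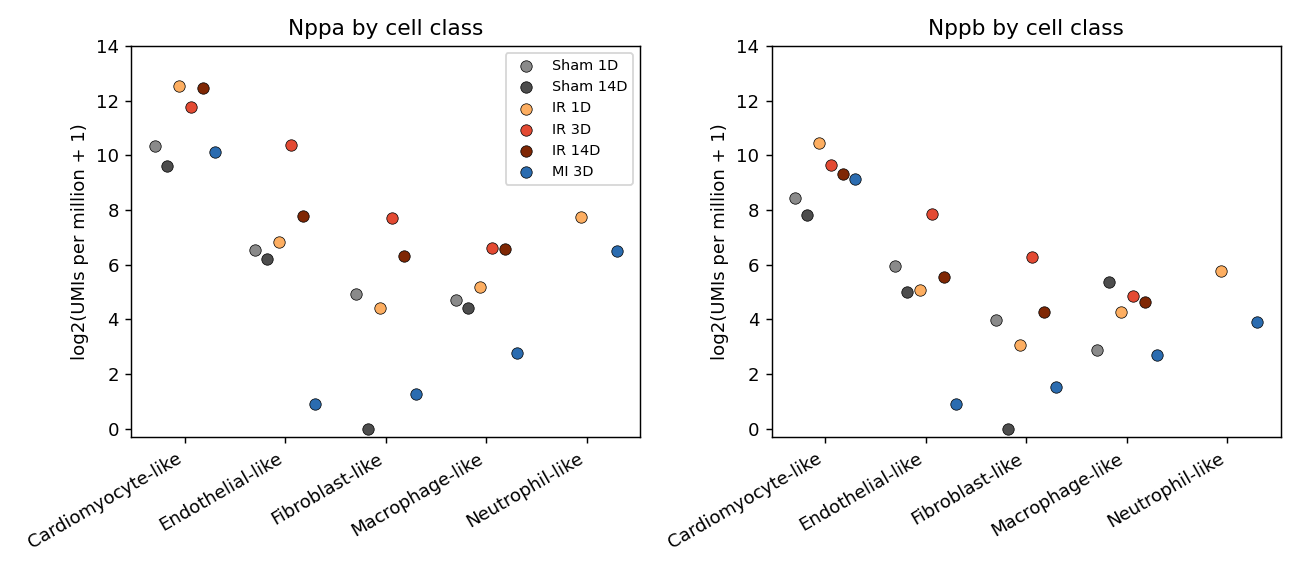
Level of Nppa (left) and Nppb (right) by cell class and group, as log2(UMIs per 1000000 + 1) over the pooled cells of a group, for classes with at least 5 cells in the group and without replicate error. The cardiomyocyte-like class is highest in each group, and for Nppa in MI the endothelial-like cells (0.853 CPM) and fibroblast-like cells (1.42 CPM) are lowest.

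Summed over all cells of a plate, both genes were lower in MI. Against sham, Nppa fell by 4.33 ± 1.12 on the log2 scale and Nppb fell by 3.58 ± 0.79 (edgeR adjusted p = 0.00132 and 0.000239, 9328 genes; 56.1% of genes passed, 23.4% downwards). Against IR 3D, Nppa fell by 5.48 ± 1.23 and Nppb fell by 4.19 ± 0.84 (edgeR adjusted p = 0.00123 and 0.000337; 17.5% of genes passed, 9.79% downwards). All 12 cardiomyocyte markers fell too in both comparisons, with medians of -5.66 and -4.43. In such sums, fewer cells of a type and less RNA per cell cannot be told apart. Neither gene passed in IR at any day, where 36.6%, 29.5% and 0.0214% of genes did at days 1, 3 and 14. At day 1 the differences were -1.41 ± 0.93 for Nppa and -1.14 ± 0.70 for Nppb (edgeR adjusted p = 0.242 and 0.210), at day 3 1.15 ± 0.82 and 0.62 ± 0.63 (edgeR adjusted p = 0.302 and 0.493), and at day 14 3.84 ± 1.08 and 1.97 ± 0.82 (edgeR adjusted p = 0.344 and 0.657). At day 1 all 12 markers fell in these sums, with a median of -3.72.

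Most other genes of the natriuretic peptide system were too sparse to test in cardiomyocyte-like cells. Levels by class pool all groups, in which the classes differ in number, and no order is read from them. Nppc, the gene of the C-type peptide, had 1 UMI in all named cells. Corin, the protease that cuts the Nppa precursor, was at 214 CPM in cardiomyocyte-like cells and 26.5 in endothelial-like cells. Furin, which cuts the Nppb precursor, was found in every named class. Npr1, the cyclic GMP-forming receptor for both hormones, was at 169 CPM in endothelial-like cells (42.6% of cells), 55.5 in mural-like and 6.21 in cardiomyocyte-like cells. Npr3, the clearance receptor, was at 114 CPM in endothelial-like cells but found in only 6.19% of them. Mme, the gene of neprilysin, which breaks the hormones down, was at 2.07 CPM in cardiomyocyte-like cells. Pde2a, a phosphodiesterase that cyclic GMP activates, was at 242 CPM in endothelial-like cells.

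Of 32 genes in the list of ligands, proteases, receptors, effectors, transcription factors and chromosome neighbours, 9 were tested in cardiomyocyte-like cells. At day 1 of IR 0 rose and 3 fell, beside 10.8% and 22.4% of all genes, with a list median of -1.22 against -0.35 over all genes. These were Corin (-2.71 ± 0.50, edgeR adjusted p = 4.70e-05), Pam, an enzyme that amidates peptide hormones (-1.90 ± 0.40, edgeR adjusted p = 0.000285), and the neighbour Mfn2, a mitochondrial fusion gene (-1.73 ± 0.41, edgeR adjusted p = 0.00089). At day 3 and day 14 of IR 0 of 9 passed, beside 6.94% and 0.0485% of all genes, and Corin was at -0.93 and -0.16. In MI against sham, where 20% of all genes rose and 27.3% fell, Corin, Pam and Mfn2 fell (-4.71, -4.44 and -1.57) and Nkx2-5, a cardiac transcription factor, rose by 1.71 (edgeR adjusted p = 3.20e-05, 4.93e-06, 0.0119 and 0.00425). In the same MI contrast the 2 hormone genes did not pass. Over all cells of a plate 25 of the 32 were tested. There 1 rose and 14 fell at day 1 of IR, beside 19.7% and 16.9% of all genes, 1 rose and 7 fell at day 3, beside 18.2% and 11.4%, and 0 passed at day 14. In MI 1 rose and 14 fell against sham, beside 32.7% and 23.4% of all genes, and 6 fell against IR 3D, beside 9.79%. The receptor gene Npr1 fell by 1.13 ± 0.33 in IR 1D, fell by 1.80 ± 0.39 in IR 3D and fell by 1.92 ± 0.33 in MI against sham (edgeR adjusted p = 0.00698, 0.000626 and 6.31e-06). The limit on such sums given above holds for these genes too.

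In a list of 16 stress and fetal genes, 15 were tested. In IR 1D 4 rose (Flnc, Nmrk2, Sprr1a and Xirp2) and 3 fell (Atp2a2, Myh6 and Pln), beside 10.8% and 22.4% of all genes. In IR 3D 5 rose, against 5.1% of all genes, and 0 fell, with a list median of 1.03 against 0.01 over all genes. Nmrk2, a nicotinamide riboside kinase, rose by 2.5 ± 0.57, Myh7 by 2.10 ± 0.42 and Ankrd1 by 1.63 ± 0.36 (edgeR adjusted p = 0.00206, 0.000331 and 0.00144), beside Cryab and Sprr1a. At day 14 of IR Myh7 alone rose. In MI 7 rose and 4 fell against sham, beside 20% and 27.3% of all genes. Ankrd1 rose there by 2.46 ± 0.45 and Clu fell by 5.16 ± 1.26 (edgeR adjusted p = 1.89e-05 and 0.000798). The list was chosen with results of these data known.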

How the data were processed

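SORT-seq libraries of single cardiac cells, sorted into 384-well plates, were sequenced and, per the study's methods, mapped with BWA-ALN to GRCm38/mm10. The version, annotation and read filters are not given in the sources used here. The authors deposited UMI counts per gene and well, as 36 tables. All 174110208 values were whole numbers. UMIs of 6 bases allow 4096 values, the highest value found. Total UMIs per plate ranged from 176614 to 5551870. Mitochondrial and spike-in counts were left out, and a gene not listed in a table was taken as 0.

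Groups came from the sample titles, with the plate as replicate. The study states 3 mice for its MI and sham comparison, and the sources do not link plates to mice. Plates of a group may therefore share a mouse, and p values may be too small. The members and the gene lists were chosen with earlier results of these data known. Wells of at least 1000 UMIs were clustered with scanpy 1.11.5 (2000 variable genes, 30 components, 15 neighbours, leidenalg 0.10.2 at resolution 1), without Nppa and Nppb. A cluster took a name when 3 or more markers on that list stood 2 times over the median of clusters and no other list had more than 0.5 of that number. This rule was the second of 2 tried: under the first, a cluster of 193 cells whose leading genes include Nppa and Nppb stayed unnamed, and this was known when the rule was changed. A version with cells under 1% of marker UMIs left out was also fitted first and its results were seen, before all cells of the clusters were taken, as planned. Cuts at 1%, 1.5% and 2% and a class set cell by cell at 4% are given as alternatives chosen after seeing the data. No doublet was called or removed.

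UMIs were summed per plate and fitted for all groups with edgeR 4.0.16 in R 4.3.3 (filterByExpr, TMM, quasi-likelihood F test), for plates with at least 5 cells. Day 3 was set against the mean of both sham groups. Shares, ratios (pseudocount 0.5) and class differences used exact permutation tests in Python 3.11.15. The share test was also run on all genes of the level fit, after the data had been seen. The threshold was 0.05. The fit was also run on simulated counts, and the outcome is not given here. Named genes were the 2 members, 32 pathway genes, 16 stress genes, chamber genes, and the 5 genes most alike over cells among those found in at least 10% of them. Replicate numbers did not pair plates (median r of same-numbered plates -0.02 over 31 pairs).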

Additional observations from a re-analysis of the deposited data

Results flagged for a closer look

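In 36 groups of plates tested for a plate far from the others, 2 were found, about as many as chance gives at 1 in 20. Both concern Nppa in IR 3D replicate 5, with 16 cardiomyocyte-like and 18 other named cells. There the log2 difference between cardiomyocyte-like and other cells was 8.09, with the nearest plate at 4.10, and the ratio to the markers was -4.31 in other cells relative to cardiomyocyte-like cells, with the nearest plate at 0.16. Both rest on the same 2 Nppa UMIs in the other cells and are not independent.

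Over all cells of a plate, the injuries differed at day 3, by -5.48 for Nppa and -4.19 for Nppb in MI against IR (edgeR adjusted p = 0.00123 and 0.000337).

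Wells under 1000 UMIs entered comparisons only where wells from 500 UMIs on were taken as an alternative. Together they held both genes. Nppa was at 1812 CPM in IR 1D, 2638 in IR 3D and 2331 in IR 14D, against 841 in Sham 1D, 484 in Sham 14D and 107 in MI. Nppb was at 633, 528 and 420 CPM in IR 1D, IR 3D and IR 14D, against 230 in Sham 1D, 164 in Sham 14D and 31.2 in MI. These values pool the wells of a group and were not tested.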

How the results depend on the processing

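The level differences rest on few plates, and those of MI on 11 cells, so depth and cell number limit them. Over all cells, both genes stayed lower in MI under each of the other settings and without any 1 plate. The class differences held under each of their settings, but the first naming rule was not among them. Settings on a marker share, the cluster led by Lars2, the naming rule, the top cell and the adjustment over all genes were chosen after seeing the data. Some settings left fewer plates with enough cells. IR 1D, with 8 plates as reported, kept 7 under the first naming rule and 5 with each marker share cut. It kept 3 with clusters made with Nppa and Nppb or wells of at least 2000 UMIs. With the class by cell, 10 cells per plate or the Lars2 cluster left out it kept 2. Those kept with the class by cell were replicates 1 and 3, the IR 1D plates highest in Nppa CPM. MI kept 1 of 2 plates, with its spread taken from the other groups, with the top cell left out, the class by cell and the 1.5 and 2 percent cuts. The plate lost was replicate 3. IR 3D lost replicate 3 with the top cell or the Lars2 cluster left out, 2000 UMIs or 10 cells, and Sham 14D lost replicate 6 with the Lars2 cluster left out, 2000 UMIs or 10 cells. Where the Nppa share of IR 14D or of MI against sham missed the threshold, its p was the smallest its plates allow. With the other tests as they stood, its adjusted p could then not pass. In some of these settings, such as the share not thinned, the plate numbers were as reported and the other p values differed. Clusters made with Nppa and Nppb and the top cell chose cells by the genes compared, so a threshold passed there supports nothing. The results below moved across the threshold or changed sign. Apart from the limit that plate numbers and the other tests set on p, the cause was not tested. Values are log2 differences or, for shares, percentage points. Nppa, IR 1D against Sham 1D passed the threshold with clusters made with Nppa and Nppb (2.37), class by cell, 4 percent marker share (3.11), cells under 1.5 percent marker share left out (1.49), cells under 2 percent marker share left out (1.74). Nppb, IR 1D against Sham 1D missed the threshold with no low count filter (0.99), replicate block (1.49), DESeq2 (1.48), wells of at least 500 UMIs (1.09), top cell of each plate left out (1.10), first naming rule (0.82). Nppa, IR 3D against sham passed the threshold with no low count filter (1.48), top cell of each plate left out (2.63), clusters made with Nppa and Nppb (1.47), class by cell, 4 percent marker share (1.66), cells under 1.5 percent marker share left out (1.46), cells under 2 percent marker share left out (1.58). Nppb, IR 3D against sham passed the threshold with no low count filter (1.28), wells of at least 2000 UMIs (1.79), top cell of each plate left out (1.54), at least 10 cells per plate (1.56), clusters made with Nppa and Nppb (1.32), first naming rule (1.40), class by cell, 4 percent marker share (1.35), cluster led by Lars2 left out (1.56), cells under 1 percent marker share left out (1.26), cells under 1.5 percent marker share left out (1.27), cells under 2 percent marker share left out (1.39). Nppa, IR 14D against Sham 14D passed the threshold with no low count filter (3.19), top cell of each plate left out (4.01), clusters made with Nppa and Nppb (3.08), class by cell, 4 percent marker share (3.30), cells under 1 percent marker share left out (3.09), cells under 1.5 percent marker share left out (3.13), cells under 2 percent marker share left out (3.17). Nppa, MI against sham changed sign with day 3 against Sham 14D alone (0.57), wells of at least 2000 UMIs (0.011), top cell of each plate left out (0.69), class by cell, 4 percent marker share (0.33), cells under 1.5 percent marker share left out (0.091), cells under 2 percent marker share left out (0.59). Nppb, MI against sham changed sign with DESeq2 (0.014), day 3 against Sham 14D alone (0.21), wells of at least 500 UMIs (0.045), wells of at least 2000 UMIs (0.20), Rn45s left out (0.025), at least 1 cell per plate (0.091), cluster led by Lars2 left out (0.0095), cells under 1 percent marker share left out (0.16) and passed the threshold with class by cell, 4 percent marker share (-2.48), cells under 1.5 percent marker share left out (-2.59). Nppa, MI against IR 3D passed the threshold with wells of at least 500 UMIs (-2.36). Nppb, MI against IR 3D passed the threshold with top cell of each plate left out (-4.02), class by cell, 4 percent marker share (-3.83), cluster led by Lars2 left out (-1.55), cells under 1.5 percent marker share left out (-3.87), cells under 2 percent marker share left out (-3.48). Nppa, IR 14D against IR 3D changed sign with replicate block (-1.01). Nppa, Sham 14D against Sham 1D passed the threshold with cells under 1.5 percent marker share left out (-1.69), cells under 2 percent marker share left out (-1.72). Share of Nppa, MI against IR 3D changed sign with wells of at least 500 UMIs (-20.0). The ratio, MI against IR 3D changed sign with wells of at least 500 UMIs (1.17), at least 1 cell per plate (0.63). Background of Nppb missed the threshold with wells of at least 500 UMIs (-0.41), wells of at least 2000 UMIs (-0.37), at least 10 cells per plate (-0.51), at least 1 cell per plate (-0.36), pseudocount 1 (-0.43). Share of Nppa, IR 14D against Sham 14D missed the threshold with wells of at least 2000 UMIs (25.8), at least 10 cells per plate (33.8), at least 1 cell per plate (35.5), share not thinned (50.2), top cell of each plate left out (35.8), class by cell, 4 percent marker share (34.5), cluster led by Lars2 left out (31.3), p adjusted over all genes (35.5). Share of Nppa, MI against sham missed the threshold with wells of at least 2000 UMIs (48.7), day 3 against Sham 1D alone (42.4), day 3 against Sham 14D alone (54.6), share not thinned (59.3), top cell of each plate left out (62.3), class by cell, 4 percent marker share (64.9), cluster led by Lars2 left out (47.4), cells under 1.5 percent marker share left out (65.3), cells under 2 percent marker share left out (65.3). Share of Nppa, IR 1D against Sham 1D passed the threshold with clusters made with Nppa and Nppb (52.0), cells under 1 percent marker share left out (35.2), cells under 1.5 percent marker share left out (36.4), cells under 2 percent marker share left out (38.9). Share of Nppb, IR 1D against Sham 1D passed the threshold with clusters made with Nppa and Nppb (41.3). The ratio, IR 1D against Sham 1D changed sign with clusters made with Nppa and Nppb (-0.033), at least 10 cells per plate (-0.68), class by cell, 4 percent marker share (-1.68). Share of Nppb, IR 3D against sham missed the threshold with at least 1 cell per plate (11.6), day 3 against Sham 14D alone (16.8), share not thinned (22), top cell of each plate left out (18.2), class by cell, 4 percent marker share (13.8), p adjusted over all genes (18.0). Share of Nppb, MI against IR 3D changed sign with at least 1 cell per plate (2.69), share not thinned (18.5). Share of Nppa, IR 3D against sham missed the threshold with day 3 against Sham 14D alone (46.6). Share of Nppb, MI against sham changed sign with top cell of each plate left out (-11.0), class by cell, 4 percent marker share (-13.0), cells under 1.5 percent marker share left out (-13.3), cells under 2 percent marker share left out (-13.3). Sham 14D replicates 2 and 7 were counted as 1 plate. Without them background of Nppa was -0.76 and share of Nppb, IR 3D against sham was 16.9. Share of Nppa was then 34.6 for IR 14D against Sham 14D and 48.1 for MI against sham. The replicate block is a fit by replicate number, and the numbers do not pair the plates. Without 1 plate at a time the values ranged as follows, where a call or sign changed: Nppb, IR 1D against Sham 1D 0.92 to 1.72, Nppb, IR 3D against sham 1.10 to 1.47, Nppa, MI against sham -0.82 to 0.23, Nppb, MI against sham -2.67 to 0.84, Nppb, MI against IR 3D -3.90 to -0.41, Nppa, IR 14D against IR 3D -0.35 to 1.35, Nppb, IR 14D against IR 3D -0.52 to 0.22, share of Nppb, IR 3D against sham 16.3 to 20.8, share of Nppa, MI against sham 33 to 65.3, share of Nppa, IR 14D against Sham 14D 24.7 to 44.4, background of Nppa -0.76 to -0.44, share of Nppa, MI against IR 3D -8.12 to 24.2, share of Nppb, MI against IR 3D -31.3 to 22.8, the ratio, MI against sham -3.86 to 0.40, the ratio, MI against IR 3D -2.60 to 1.67, share of Nppb, MI against sham -13.2 to 40.8. The number of genes that passed in cardiomyocyte-like cells ranged over settings, some with fewer plates as given above, from 132 to 1683 for IR 1D against Sham 1D (as reported 684), from 59 to 401 for IR 3D against sham (as reported 143), from 1 to 19 for IR 14D against Sham 14D (as reported 1), from 669 to 1547 for MI against sham (as reported 974), from 315 to 1037 for MI against IR 3D (as reported 620), from 18 to 204 for IR 14D against IR 3D (as reported 76), from 6 to 41 for Sham 14D against Sham 1D (as reported 19). Without MI replicate 2 it was 458 for MI against sham and 133 for MI against IR 3D. Without IR 3D replicates 4 or 7 it was 94 or 81 for IR 3D against sham, without IR 14D replicates 1 or 2 it was 37 or 44 for IR 14D against IR 3D, and without Sham 1D replicate 2 or Sham 14D replicate 8 it was 10 or 11 for Sham 14D against Sham 1D. For IR 14D against Sham 14D it was 1 to 4 without 1 plate.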
